A study of Glycine soja and Glycine max with 13 samples.

Results

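In seeds of 13 soybean lines, 100 genes had more transcript in each of 6 cultivated lines than in any of 7 wild lines. They were chosen by their CPM (the reads of a gene for each 1000000 counted reads of its line). A gene was taken when its mean over the cultivated lines was at least 2 CPM and its lowest cultivated value lay above its highest wild value. The table holds 43517 genes, of which 27180 reached the mean of 2 CPM, so the genes described here were 0.368% of the expressed ones. With the groups exchanged, the same rule gave 156 genes that were higher in each wild line, or 0.574% of the 27192 expressed there. Because the values themselves chose the genes, the difference between the groups is a description here and carries no test.

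The cultivated lines, Glycine max, were df12, df14, df17, df36, df3 and df43. The wild lines, Glycine soja, were ys1, ys16, ys17, ys23, ys26, ys29 and ys34. All plants stood in fields without a stated treatment, and seeds were taken 13 days after flowering. Each line is 1 sample, the number of plants or seeds in it is not stated, so errors given here are the spread among lines of a group. In whole seeds, more RNA per cell and more cells of a type cannot be told apart. Totals ran from 12668664 reads in df3 to 26044036 reads in df36, so that 3 reads stood for 0.115 to 0.237 CPM.

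Soybean was domesticated from its wild relative, and the crop has far heavier seeds. A young seed first builds its tissues by cell division and then fills, when the embryo makes reserve proteins and oil from sugars and amino acids that arrive through the seed coat. Glycinin and β-conglycinin are the main reserve proteins, and their transcripts climb steeply as filling proceeds. Seeds of the same age can therefore stand at different points of filling. The deposited table pairs no identifier with a gene name, and 0 of the identifiers matched the RefSeq gene table given for wild soybean, so the products of the 100 genes are not described.

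The widest separation was that of Glyma.01G110300, which had almost no counted reads in wild seeds. Counts cannot tell a silent gene from one whose reads from wild lines were not aligned, and this was not tested. It stood at 0.598 CPM in df12, 2.84 in df14, 2.29 in df17, 4.19 in df36, 3.55 in df3 and 1.95 in df43, against 0.0847 CPM in ys16, 0.0574 in ys17 and 0 in the other 5 wild lines. These values rest on 291 reads in cultivated lines and 3 reads in wild lines, a ratio of 110 per read sequenced with a 95% counting interval of 37.1 to 535 (exact binomial). The lowest cultivated line, df12, held 9 reads and the highest wild line, ys16, held 2, a ratio of 7.06 with an interval of 1.46 to 67.2. Counting intervals cover counting error only, since the reads carry no molecular identifiers.

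The 7 next widest gaps were much narrower. Glyma.09G261700 had a lowest value of 2.96, a median of 3.05 and a highest of 4.76 CPM in cultivated lines, against 0.254, 0.720 and 1.44 CPM in wild lines. Glyma.02G270400 had 11.8, 17.4 and 24.6 CPM in cultivated lines for the same 3 measures, against 3.30, 4.24 and 5.97 CPM in wild lines. For both, the lowest cultivated line held about as much as 2 times the highest wild line, with ratios of 2.06 and 1.98. Glyma.08G012900 had 9.31, 15.8 and 18.7 CPM in cultivated lines and 0.783, 3.76 and 5.41 CPM in wild lines, with its lowest wild value in ys34. Glyma.15G108600 had 3.07, 8.70 and 10.8 CPM in cultivated lines and 0.941, 1.52 and 1.87 CPM in wild lines, and the lowest cultivated value was that of df36. Glyma.05G066500 had 19.01, 25.1 and 41.1 CPM in cultivated lines and 1.72, 6.77 and 12.2 CPM in wild lines.

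In Glyma.20G042600 and Glyma.01G118000 the cultivated lines were spread far more widely than the wild ones. Glyma.20G042600 averaged 2.53 ± 1.93 CPM in cultivated lines (SD, n = 6), with df12 at 5.85 and df36 at 0.730, against 0.281 ± 0.110 CPM in wild lines (SD, n = 7). Its gap of 1.69 rests on 19 reads in df36 and 6 in ys29, and the 95% counting interval, 0.65 to 5.18, includes 1. Glyma.01G118000 averaged 18.9 ± 12.0 CPM in cultivated lines and 4.97 ± 0.835 CPM in wild lines. In 3 cultivated lines, df12, df36 and df43, it stood between 8.52 and 9.24 CPM, and in the other 3 between 21.8 and 36.6 CPM.

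**Figure D1:**
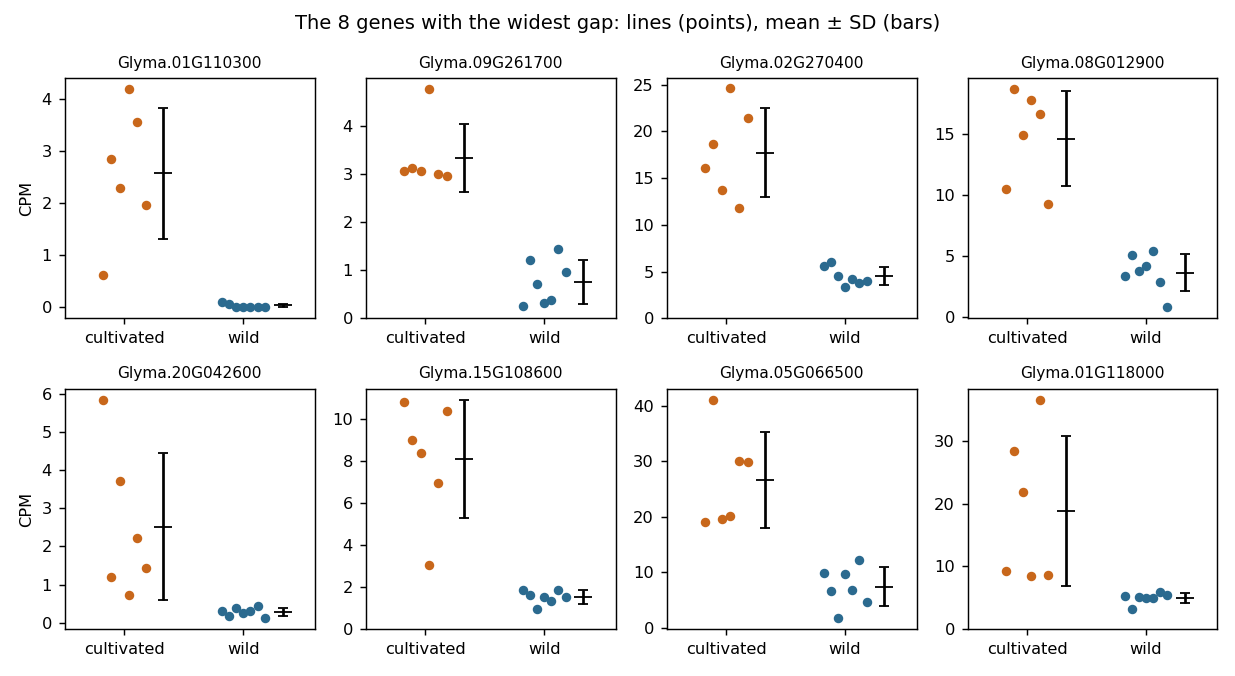
CPM of the 8 genes with the widest gap, a panel each, with cultivated lines (orange, n = 6) left of wild lines (blue, n = 7); points are lines and bars the mean with its SD. Glyma.01G110300 is at or near 0 in wild lines, and the cultivated lines of Glyma.20G042600 and Glyma.01G118000 are spread widely.

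For most of the 100 genes the groups were only just apart. The ratio of the lowest cultivated to the highest wild value had a median of 1.08, with quartiles of 1.03 and 1.16. It was under 1.1 for 63 genes and reached 1.5 for 7. In CPM, the distance between the nearest lines had a median of 0.535. Counting error alone gave an interval above 1 for 14 of the 100 ratios, so for the other 86 the order of the nearest pair of lines was within counting error. The intervals make no allowance for the rule, which chose genes with ratios above 1. Just inside the limit, Glyma.08G265900 and Glyma.13G142300 had ratios of 1.001 and 1.002. Just outside it, Glyma.03G164500 and Glyma.11G086200 had ratios of 0.9994 and 0.9992.

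The group means were further apart than the nearest lines. The mean of the cultivated lines over that of the wild lines had a median of 1.96 over the 100 genes, with quartiles of 1.66 and 2.59. It was at least 2 for 48 genes, at least 4 for 11 and under 1.5 for 17. Over the other expressed genes the median was 0.969. The lowest of the 100, 1.19, shows that a small difference was enough where lines of a group lay close together.

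The genes were of ordinary abundance. Their mean in cultivated lines had a median of 13.3 CPM with quartiles of 6.20 and 27.0 CPM, against 11.8 CPM with quartiles of 5.93 and 24.1 CPM over all expressed genes. At least 100 CPM was reached by 3 of the 100, or 3 percent, and by 4.54% of all expressed genes. The ratio of the nearest lines was weakly related to abundance (Spearman rho = -0.23 across the 100 genes, which share their libraries and were all chosen on these values). Near the limit of 2 CPM, Glyma.17G028200 and Glyma.17G018700 had means of 2.37 and 2.38 CPM in cultivated lines. Glyma.08G001400 and Glyma.09G134800, which did not overlap between the groups either, missed it with 1.88 and 1.82 CPM.

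Glyma.20G169900 was the most abundant and averaged 455 ± 111 CPM in cultivated lines (SD, n = 6), against 245 ± 55.9 CPM in wild lines (SD, n = 7). Its lowest cultivated line, df3, held 342 CPM and its highest wild line, ys23, held 303 CPM, a ratio of 1.13 with a counting interval of 1.08 to 1.18. Glyma.18G009700 followed with 259 ± 61.3 CPM in cultivated and 141 ± 26.1 CPM in wild lines. In both, the counting interval of the ratio lay above 1, where the rule had already required the ratio itself to do so. Glyma.11G175200 averaged 138 ± 26.3 CPM in cultivated lines, against 95.8 ± 8.78 CPM in wild lines, and had a ratio of 1.049 whose interval, 0.983 to 1.12, includes 1. Glyma.19G228800 had 96.9 ± 20.7 CPM in cultivated and 63.5 ± 7.56 CPM in wild lines. Its ratio was 1.03, and the interval, 0.954 to 1.12, includes 1 as well.

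**Figure D2:**
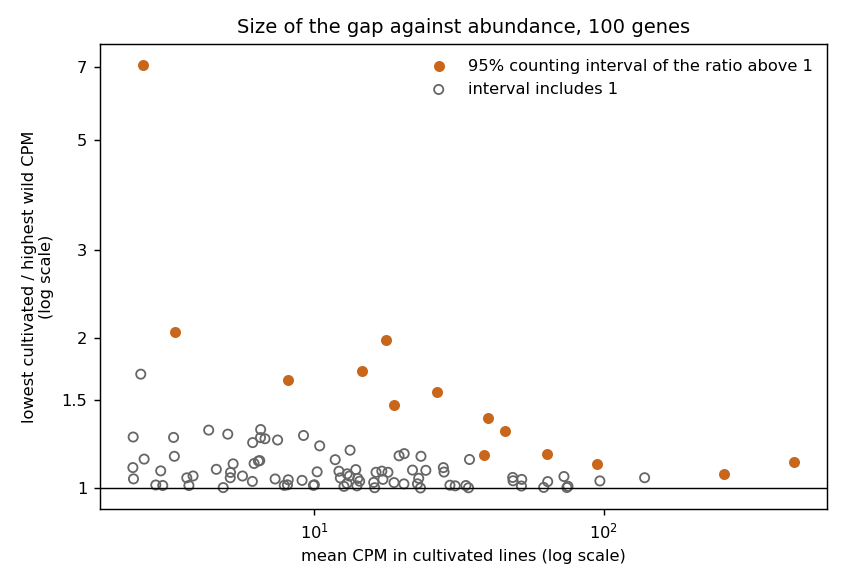
Each of the 100 genes by its mean CPM in cultivated lines (horizontal, log scale) and the ratio of its lowest cultivated to its highest wild value (vertical, log scale). Filled points are the 14 genes whose 95% counting interval of that ratio lies above 1; most genes lie just above the line at 1, at all abundances.

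A few genes had almost no counted reads in most wild lines yet not in all. Glyma.11G153400 and Glyma.20G050500 were picked out after their values were seen. Glyma.11G153400 lay between 4.26 and 6.77 CPM in cultivated lines, against 4.06 CPM in ys23, 0.646 CPM in ys29 and at most 0.120 CPM in the other 5 wild lines, 3 of them at 0. Glyma.20G050500 lay between 6.45 and 18.5 CPM in cultivated lines, against 6.35 CPM in ys23, 6.18 CPM in ys29 and at most 0.369 CPM in the other 5, again with 3 at 0. For both, ys23 came within reach of the lowest cultivated line, with ratios of 1.049 and 1.02 between that line and ys23. Glyma.08G194900 lay between 2.21 and 11.7 CPM in cultivated lines and between 0 and 1.69 CPM in wild lines. With Glyma.01G110300, these were the 4 genes with a wild line at 0.

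**Figure D3:**
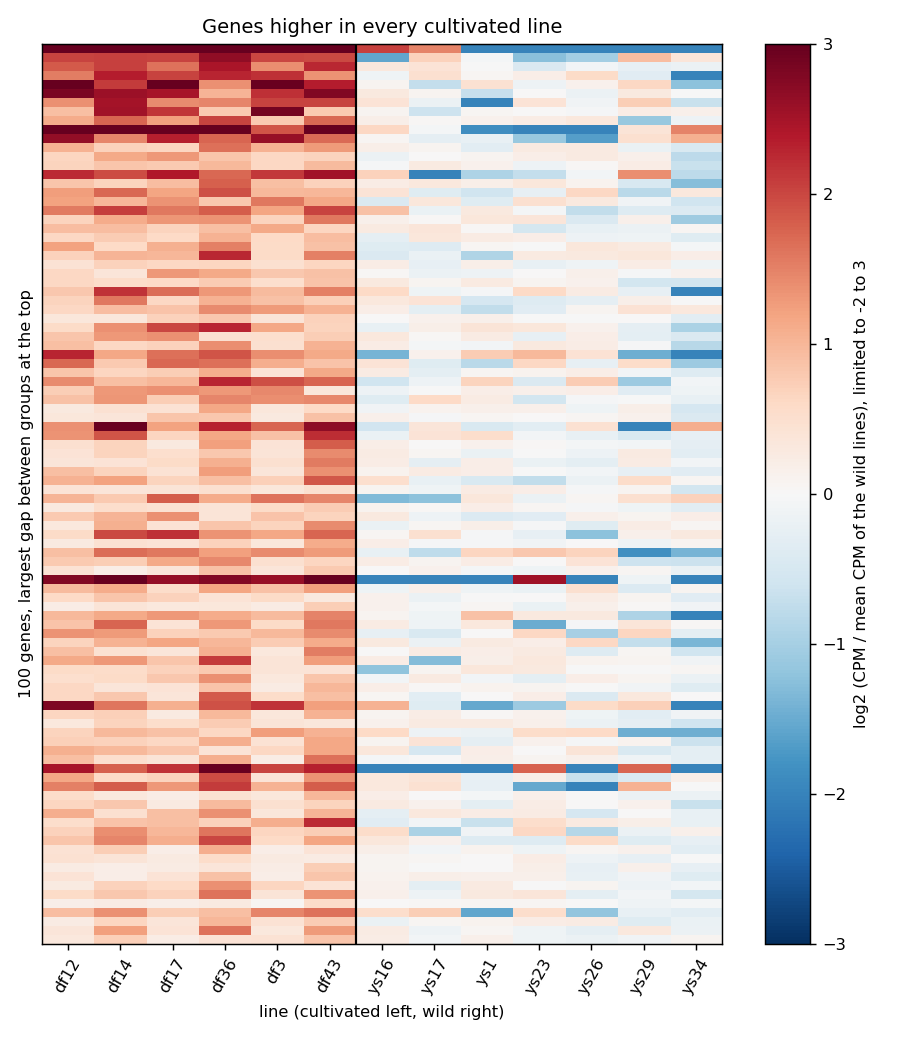
The 100 genes (rows, widest gap at the top) in 6 cultivated and 7 wild lines (columns), as log2 of CPM over the mean of the wild lines, limited to -2 to 3. Red is higher and blue lower than the wild mean; df36 and df43 are the deepest red in many rows, and in a few rows most wild lines are deep blue while ys23 or ys29 is red.

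Among cultivated lines, df36 and df43 held the highest value for 40 and 30 of the 100 genes. Over all expressed genes either of these lines was highest for 36.1%. Both together held the top 2 places for 33 of the 100, against 10.4% of all expressed genes. At the other end, df3 was the lowest cultivated line for 35 genes and df12 for 20, and these lines were lowest for 18.6% and 16.7% of all expressed genes. Line df3 thus set the lower edge of the cultivated group most often. Without df3 the rule was met by 328 genes, without df12 by 183, and without ys16 or ys17 by 164 each.

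Among wild lines the highest value came from ys26 or ys29 for 19 genes each, from ys23 for 17, from ys16 for 16, from ys17 for 15, from ys1 for 10 and from ys34 for 4. Over all expressed genes it came from ys26 for 9.51%, ys29 for 12.6%, ys23 for 13.1%, ys16 for 28.7%, ys17 for 18.01%, ys1 for 13.1% and ys34 for 4.90%, so ys26 set the upper edge more often and ys16 less often among the 100 than at large. The lowest was that of ys34 for 42 genes, and ys34 was the lowest wild line for 30.5% of all expressed genes. The lines also differed in how much of the reads the 8 most abundant features took, and a larger share leaves a smaller CPM sum for the rest. That share was 15.9% in df36, 32.2% in df3 and 38.8% in ys34. Despite its small share, df36 was the lowest cultivated line for 31.9% of all expressed genes with unscaled totals, and the highest for 16.5%. With totals scaled by TMM, an edgeR factor computed over most genes, 158 genes met the rule and 82 of the 100 were among them. The TMM factor was 0.890 in df36, 0.975 in df3 and 0.886 in ys34. The lines with the smallest and the largest share, df36 and ys34, thus had nearly the same factor. Of these 158, df36 was highest of the cultivated lines for 85, against 24.8% of all expressed genes under that scaling. Line df3 was lowest of the cultivated lines for 62, df17 for 37 and df12 for 20, against 16.9%, 14.1% and 13.6% of all expressed genes. Line ys34 was lowest of the wild lines for 47, against 16.3% of all expressed genes. The highest wild value came from ys26 for 31 and from ys16 for 19 of the 158, against 14.3% and 11.2% of all expressed genes. The part of the scaling in the order of the lines was not tested further. All 4 other scalings kept 66 of the 100.

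In a fit across the 31420 genes with enough counts, 99 of the 100 could be tested, and the expression filter removed Glyma.01G110300. The 8 alternative edgeR fits that kept Glyma.01G110300 all called its group difference, with adjusted p of 0.000951 to 0.00486, on the values that chose it. The group difference was called for 7 of the 99 by edgeR (quasi-likelihood F-test, p under 0.05 after Benjamini-Hochberg adjustment), where 0.0255% of all tested genes were called higher in cultivated seeds. DESeq2 called 93 of the 99, where 2.61% of all genes were called higher. These counts use the values that chose the genes and are given for their size only. The 7 were Glyma.02G270400, Glyma.15G108600, Glyma.19G089600, Glyma.08G012900, Glyma.10G112000, Glyma.20G042600 and Glyma.13G150000. Without ys16 the edgeR count was 3, and without df36, ys17 or ys1 it was 4 in each case. The 1 other gene called higher, Glyma.01G129700, was kept out by an overlap, with a lowest cultivated value of 3.11 CPM and a highest wild value of 3.39 CPM.

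Of these 7, 3 have not been described above. Glyma.19G089600 had a lowest value of 5.13, a median of 7.29 and a highest of 9.45 CPM in cultivated lines, against 1.35, 1.95 and 4.11 CPM in wild lines. Line ys16 stood at 4.11 CPM, above the other wild lines, which reached 2.77 CPM. Glyma.10G112000 had 24.3, 39.9 and 57.5 CPM in cultivated lines and 6.46, 15.4 and 17.6 CPM in wild lines. Glyma.13G150000 had 16.2, 31.4 and 34.5 CPM in cultivated lines and 9.98, 12.6 and 14.7 CPM in wild lines.

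Seed filling was placed by a storage protein score, the mean log2 CPM of 8 genes whose identifiers the literature gives for glycinin and β-conglycinin. The names were not checked against an annotation. None of the 100 genes was among them. The score was 10.2 in df12, 1.65 in df14, 7.97 in df17, 3.05 in df36, 4.53 in df3 and 6.08 in df43, against 2.47 in ys16, 7.63 in ys17, 10.1 in ys1, 8.46 in ys23, 8.91 in ys26, 2.45 in ys29 and 0.511 in ys34. Both groups thus held lines with little and with much storage transcript. The summed level of the 8 lay between 116 CPM (df14) and 36066 CPM (df12) among cultivated lines, and between 26.1 CPM (ys34) and 45928 CPM (ys1) among wild lines, so that these markers of the filling seed were detected in each line. Glyma.20G148300 and Glyma.20G148400, both in the score, had nearly the same values in each line, and reads of such copies may have been counted for both.

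The order of the lines by the 100 genes was not their order by the score. Relative to the wild mean, the median gene stood at 2.22 in df36, 2.19 in df43, 1.87 in df14, 1.73 in df12, 1.72 in df17 and 1.55 in df3. The highest of these lines, df36 and df43, had neither the lowest nor the highest score, and df14 and df12, with the lowest and highest scores of the cultivated lines, differed little. In wild lines it lay between 0.831 in ys34, the line with the lowest score, and 1.09 in ys16. These values use unscaled totals. With TMM scaling the same 100 genes gave 2.53 in df36, 2.22 in df43, 1.87 in df12, 1.78 in df14, 1.66 in df17 and 1.61 in df3. In wild lines they gave 0.950 in ys34, 0.965 in ys16 and at most 1.048 (ys23). The range of the wild lines was thus narrower, with another line on top. That of the cultivated lines was wider, with df36 still on top. Summed, the 100 genes made up 2797 ± 383 CPM in cultivated lines (SD, n = 6) and 1543 ± 147 CPM in wild lines (SD, n = 7).

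**Figure D4:**
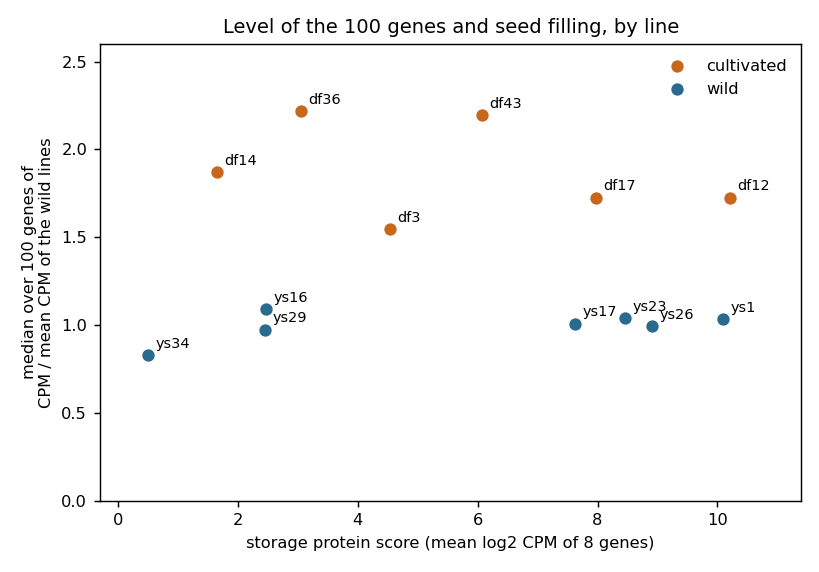
Each line by its storage protein score (horizontal, mean log2 CPM of 8 genes) and the median over the 100 genes of CPM relative to the wild mean (vertical), with cultivated lines in orange and wild lines in blue. The cultivated lines lie between 1.55 and 2.22 and the wild lines between 0.831 and 1.09 along the whole range of the score.

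The relation of single genes to filling was tested in edgeR with the group and the score as terms, which measures the slope on the score within the groups. A slope is the log2 change per unit of the score, and a unit is a doubling of storage transcripts on average. A rise with the score was called for 1 of the 99 tested genes, where 3.63% of all tested genes rose. A fall was called for 0 of the 99 by edgeR, where 1.85% of all genes fell. At an unadjusted edgeR p under 0.05, 4 of the 99 rose and 1 fell, where 3163 of all 31420 genes rose and 2684 fell. DESeq2 called 2 of the 99 rising and 1 falling, and its share over all genes is not given here. Without df14 or without ys26 edgeR also called 1 falling. The rule itself favours genes with little spread within a group, so a low count is in part fixed by it. The median size of the slope, whatever its sign, was 0.025 over the 99 genes and 0.035 over all genes.

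The gene called was Glyma.07G107200, with a slope of 0.22 (SE 0.052, edgeR adjusted p = 0.0222). In wild lines it stood at 0.301 CPM in ys34, 0.718 in ys29 and 0.762 in ys16, the 3 lines with low scores, and between 2.18 and 3.87 CPM in the other 4. In cultivated lines it was highest in df12, at 9.64 CPM, and between 4.34 and 7.41 CPM in the other 5. Fitted for each group, its slope was 0.081 in cultivated and 0.34 in wild lines (edgeR p of the difference 0.0052 unadjusted and 0.976 adjusted). The call was lost without df12, ys16, ys1, ys29 or ys34, with edgeR adjusted p of up to 0.0933, and by limma voom. The next in order, Glyma.13G112200, had a slope of -0.086 (SE 0.026, edgeR adjusted p = 0.0663), with 34.4 ± 6.96 CPM in cultivated and 16.6 ± 4.57 CPM in wild lines. Glyma.08G023100 had a slope of 0.13 (edgeR adjusted p = 0.121) and Glyma.20G042600 one of 0.17 (edgeR adjusted p = 0.154), and neither passed. Glyma.08G023100 varied mainly among wild lines, with 1.14 CPM in ys34 and 11.6 CPM in ys1, while cultivated lines lay between 12.2 and 17.7 CPM. On the falling side Glyma.08G194900 and Glyma.13G142300 had slopes of -0.18 and -0.066 and did not pass either (edgeR adjusted p of 0.281 and 0.284).

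The slopes were also fitted for each group. In cultivated lines 28 of the 99 were above 0 and 71 below, with a median of -0.022, while 50.4% of all genes were above 0. In wild lines 59 were above 0 and 40 below, with a median of 0.011, while 49.9% of all genes were above 0. The 99 slopes of a group rest on the same few lines, so their signs are not independent. Line df36, with a score of 3.05, was the highest cultivated line for 40 of the 100 genes, and its part in these signs was not tested. A difference in slope between the groups was called for none of the 99 and none of all genes (0%) by edgeR. It reached an unadjusted p under 0.05 for 11 of the 99 and for 1101 of all 31420, and DESeq2 and limma voom called 0 of the 99. Among the named genes, Glyma.08G012900 had slopes of -0.092 in cultivated and 0.16 in wild lines, and the difference had an edgeR adjusted p of 0.976.

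With the score as a term the group difference was called for 34 of the 99 by edgeR, where 0.197% of all genes were called higher in cultivated seeds. Nothing is read from this count, since the rule used that contrast. The fitted group differences hardly moved, with a median log2 value of 1.04 with the score and 1.02 without it. The count depended on single lines, as it was 32 without df3 and between 4 (without ys1) and 22 (without ys26) when any 1 of the other 12 lines was left out.

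By the chromosome number and order that soybean identifiers carry, the 100 genes were scattered over all 20 chromosomes. Chromosome 13 held 13 of them, where it holds 7.09% of expressed genes, and chromosome 1 held 8, where it holds 4.18%. Chromosome 16 held 1, where it holds 3.49% of expressed genes, and chromosome 15 held 2, where it holds 4.72%. Of the 156 genes higher in each wild line, 16 were on chromosome 13 as well. With TMM scaling it held 20 of the 158 genes. On chromosome 13 the closest group of at least 5 was the 5 genes from Glyma.13G128300 to Glyma.13G150000, spread over 136 expressed genes.

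**Figure D5:**
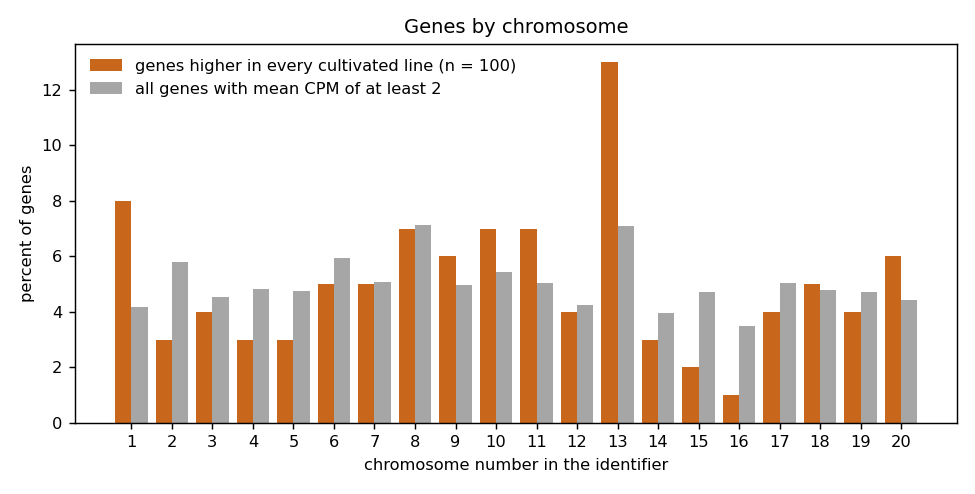
Percent of the 100 genes (orange) and of all genes with a mean of at least 2 CPM in cultivated lines (grey) on each chromosome, by the number in the identifier. Chromosome 13 holds 13 percent of the 100 genes and 7.09% of the expressed ones.

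Runs of neighbouring genes were rare. Only 4 of the 100 had another of them within 3 expressed genes, in 2 pairs. For comparison, 2.17% of the other expressed genes had one of the 100 that near, and 6 of the 156 genes higher in wild lines, or 3.85%, had another of their own. Genes within 3 places of the 100 were higher on average in cultivated lines in 48.5% of 586 cases, against 45.4% of the other expressed genes. Their median ratio of cultivated to wild means was 0.984. The median ratio of the other expressed genes was 0.969.

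The pair on chromosome 8, Glyma.08G194900 and Glyma.08G195100, had 1 expressed gene between them and differed in profile. Glyma.08G194900 was highest in df17, at 11.7 CPM, where Glyma.08G195100 was lowest of the cultivated lines, at 5.54 CPM. Glyma.08G195100 averaged 7.34 ± 1.49 CPM in cultivated lines and 3.41 ± 1.39 CPM in wild lines. The pair on chromosome 13, Glyma.13G087000 and Glyma.13G087300, were next to each other among expressed genes. Glyma.13G087000 averaged 23.4 ± 2.23 CPM in cultivated and 14.9 ± 3.36 CPM in wild lines, and Glyma.13G087300 averaged 6.5 ± 3.15 CPM in cultivated and 2.32 ± 0.649 CPM in wild lines. Glyma.13G087300 was highest in df36, at 11.3 CPM, while Glyma.13G087000 was highest in df43, at 26.9 CPM. Around these pairs, 3 of 7 and 1 of 6 other genes had a higher mean in cultivated lines. Glyma.08G195100 did not meet the rule with TMM scaling, and neither did Glyma.11G175200 or Glyma.08G265900.

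None of 17 identifiers that the literature links to seed size or domestication was among the 100, and 1 of the 17 was among the 156 genes higher in each wild line. At the share of 0.368% over expressed genes, a count of 0 of 17 says nothing of the list. The nearest was Glyma.02G269500, which lies 6 expressed genes from Glyma.02G270400 and averaged 3.06 ± 1.14 CPM in cultivated and 1.97 ± 0.462 CPM in wild lines, with overlapping groups. Of the 5 expressed genes between them, 3 had a higher mean in cultivated lines, with ratios from 0.758 to 1.38 over the 5. The 3.95-fold difference of Glyma.02G270400 was not seen in these 5 genes.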

How the data were processed

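The authors deposited raw counts of reads for each gene, with a column for each line named in the header. Per the submitters' processing notes, edgeR, SAMtools, TopHat2 and Trim Galore 0.3.3 were used. The sources used here do not name the counting tool, genome build or annotation. They do not say either how reads of near-identical or overlapping genes were assigned, so such values are uncertain. Libraries were strand-specific mRNA libraries per the labels' protocols.

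CPM values use unscaled column sums. Fits used edgeR 4.0.16 in R 4.3.3 with its expression filter, TMM factors, quasi-likelihood F-tests and Benjamini-Hochberg adjustment at 0.05 over 31420 genes, with limma 3.58.1 voom and DESeq2 1.42.0 as alternatives. The edgeR fit with the group and the score as terms was tried on simulated data, and the outcome is not given here. The fit with the group alone and the difference in slope were not checked in that way. The storage protein score used log2 CPM with a prior count of 2, and 8 of the 10 identifiers listed for it entered it. Other steps used Python 3.11.15 with numpy 2.4.6, scipy 1.17.1, pandas 2.3.3 and matplotlib 3.10.9. Of the fits, 0 dropped or imputed a line except those that leave 1 out. P-values measure the spread between lines, 1 sample each.

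The genes and lists were chosen with earlier results of these data known. Named genes are the 8 with the widest gap, the 4 most abundant, those called for the group by edgeR, those in runs, up to 3 per direction with the smallest p for the score, and 2 on each side of each threshold.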

Additional observations from a re-analysis of the deposited data

Results flagged for a closer look

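Among 58 groups of lines examined, those of the named genes, the score, the summed level and the share of the 8 most abundant features, 3 (5.17%) held a line outside Dixon's 95% limit, where chance gives about 5%. Glyma.09G261700 was far higher in df36, at 4.76 CPM, than in the other cultivated lines, which lay between 2.96 and 3.11 CPM. Glyma.01G118000 was lowest in ys17, at 3.21 CPM, while the other wild lines lay between 4.86 and 5.82 CPM. Glyma.20G169900 was lowest in ys34, at 136.8 CPM, while the other wild lines lay between 232 and 303 CPM; ys34 also had the largest share of reads in the 8 most abundant features, 38.8%, and its part in this value was not tested.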

How the results depend on the processing

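The number of genes that met the rule was 100. It was 158 with TMM, 160 with RLE and 197 with upper-quartile sizes, 138 with totals that leave out the 8 most abundant features, and 7 where the lowest cultivated value had to be at least 1.5 times the highest wild one. Leaving out 1 line at a time gave 111 to 328 genes, since fewer values then have to stay apart. It was 144 without ys34 and df36 together, chosen after the data were seen. Over these scalings and without any 1 line, the median ratio of the nearest lines lay between 1.065 and 1.114 and that of the group means between 1.9 and 2.086.

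The edgeR group count of 7 was 11 with no filter, Glyma.01G110300 among them, and 93 with DESeq2, and 3 to 10 without 1 line. Glyma.02G270400, Glyma.15G108600 and Glyma.19G089600 were called under all 17 alternatives run, on values that the rule had used to choose them. With the score as a term the count of 34 was 93 with DESeq2 and 4 to 32 without 1 line. The rule used the group contrast, and the share of all genes that DESeq2 called with the score as a term is not given. Nothing is read from these group counts. The count rising with the score was 2 with DESeq2 and 0 to 1 without 1 line, and the 1 gene that limma voom called was Glyma.20G042600 (adjusted p = 0.0292). The count falling was 1 with DESeq2, 1 with the first principal component in place of the score and 0 to 1 without 1 line. Genes with another of the 100 near by numbered 2 with 1 neighbour on each side and 6 with 5. The causes were not tested. No paired analysis was possible because each sample is a different line and the line numbers name lines only. At these depths, 86 of the 100 gaps lay within counting error.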
